A study of Mus musculus with 11 samples.

Results

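The 9 genes described here, Shh, Gli1, Gli2, Gli3, Ptch1, Hhip, Smo, Sufu and Boc, encode core components of the Sonic hedgehog pathway. They were picked by name out of the 20475 genes listed for the mouse embryonic forebrain, with the knockout and wild-type values of both comparisons already known, so their values chose them and are given as a description. Where a member is said to be past the thresholds used for all genes, that too describes values that chose it, and no p-value is given for it. All 9 were listed once in each table, and all 9 passed the filter on low values used for the tests across genes.

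Poly(A) RNA was sequenced from cortical cells at embryonic day 12.5, in a germline comparison of 3 wild-type and 3 Kif20a knockout libraries and an inducible comparison of 2 wild-type and 3 knockout libraries. Kif20a encodes a mitotic kinesin needed late in cell division, and the comparisons ask how gene expression differs when it is lost. Sample labels call the tissue forebrain, whereas the study's text calls it cortex. Wild-type and mutant embryos were littermates, and whether each library came from a single embryo is not given in the sources used here. Germline knockouts were homozygous for a knockout-first allele, in which Kif20a is interrupted by a cassette of LacZ and neomycin resistance, and this line descends from the only targeted ES cell clone that produced chimeras. In the inducible line the cassette had been removed by crossing to ROSA26-FlpeR mice, which left a floxed allele. Inducible knockouts are described as Nestin-CreERT2; Kif20a fl/fl, where Cre fused to an estrogen receptor is made under a Nestin promoter and acts after tamoxifen, so that deletion is limited to cells with Nestin activity. The mothers received tamoxifen on consecutive days before collection, so control littermates were exposed to it as well. The inducible controls are labelled wild type, and in the study's work on older brains of this line the controls were Kif20a fl/fl littermates, so whether the controls used here carried the floxed allele is not stated outright.

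Hedgehog proteins are secreted signals that bind the receptor Ptch1 and thereby release Smo, a membrane protein that Ptch1 otherwise holds inactive. Active Smo, acting at the primary cilium, frees Gli transcription factors from Sufu, and Gli1, Ptch1 and Hhip are themselves switched on by the pathway, so that their RNA is widely used as a readout of it. In the forebrain Shh is made ventrally and patterns the ventral telencephalon and diencephalon, while Gli3, largely as a repressor, is needed for dorsal, cortical identity.

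Values are deposited normalized counts, scaled between the libraries of a table and not divided by gene length. The study's methods go on to a scaling by length and a logarithm, and the deposited values hold neither step. Each table was normalized alone, so no level is compared between them. Each log2 fold change is knockout minus wild type after 1 was added to every value, which can understate or overstate the changes of genes with low counts. With 0.1, 1 and 5 added, germline Hhip had 0.86, 0.86 and 0.82, and germline Shh 0.24, 0.25 and 0.26. The thresholds were a fold change of at least 1.5 together with a limma P, before adjustment, no higher than 0.05.

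Some libraries held far more small values than the rest. Normalized counts above 0 and under 0.3 numbered 1572 in germline wild-type replicate 2 and 1256 in knockout replicate 1, and 10 or fewer in the other germline libraries. In the inducible table they numbered 581 in wild-type replicate 2, 747 in knockout replicate 3 and 0 in the others. The germline pair was highest for Shh, and inducible wild-type replicate 2 was lowest and knockout replicate 3 highest for it. How these values arose is not stated in the sources used here, and their part in the results was not tested.

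Germline knockout replicate 2 stood apart from the other libraries over all tested genes. On the first principal component of the germline table, with 58.0% of the variance, it lay at 91.2, and the other libraries lay between -38.4 and 3.84. Its 11 cranial mesenchyme markers summed to 599.7 normalized counts, against 7335, 5202 and 9269 in the wild-type libraries and 22473 and 11300.0 in knockout replicates 1 and 3. Col3a1, the most abundant of these markers, was at 2.46 normalized counts there and between 1838 and 8253 in the other germline libraries, and 2 of the 11 markers were at 0. The 9 dorsal pallium markers, led by Lhx2, summed to 34103 normalized counts in that library, against 9694 to 21579.7 in the other germline libraries. Lhx2, a transcription factor of the dorsal forebrain, was present in every library, between 2557 and 6285 normalized counts in the germline table and between 7635 and 11031 in the inducible table. The 12 neuronal markers, led by Map2, summed to 108168 in knockout replicate 2, to 27969 in knockout replicate 1 and to between 34475 and 61885 in the other germline libraries. The 6 microglia markers, led by Csf1r, summed to 15.8 in knockout replicate 2 and to between 383 and 583 in the other germline libraries. The germline log2 fold changes of the members and the medians of the hedgehog lists are given with and without knockout replicate 2. In bulk RNA, fewer cells of a type and less RNA per cell cannot be told apart.

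Kif20a, the targeted gene, stood at 2456, 2295 and 2680.2 normalized counts in germline wild-type libraries and at 409, 374 and 503 in the knockouts. Every knockout library lay under every wild-type library, and the log2 fold change was -2.54 with a standard error of 0.15 (Benjamini-Hochberg adjusted p = 0.00845 in limma), or -2.44 without knockout replicate 2. That adjusted p ranged from 0.00113 to 0.185 when each library in turn was left out, and it was 0.185, 0.135, 0.146 and 0.106 without wild-type replicates 1, 2 and 3 and knockout replicate 1 (limma with Benjamini-Hochberg adjustment). Among the inducible libraries Kif20a had 4760.1 and 4844 normalized counts in wild type and 3125, 2915 and 2853 in the knockouts, which is -0.70 on the log2 scale with a standard error of 0.057 (Benjamini-Hochberg adjusted p = 0.0107 in limma). Over the fits without 1 library the inducible adjusted p ranged from 0.0153 to 0.193, and it was 0.142, 0.193 and 0.162 without wild-type replicates 1 and 2 and knockout replicate 2 (limma with Benjamini-Hochberg adjustment). Kif20a was lower in 6 of 6 knockout libraries than in any wild-type library of the same table, in the direction the labels give. The inducible Kif20a values have the limits of table and sex given beside inducible Gli1.

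In the wild-type libraries, levels per length were highest for the signal transducer Smo and lowest for the antagonist Hhip. Length here is the union of a gene's exons in GENCODE M1, while the authors counted reads on RefSeq exons, so levels per kb are approximate. Smo had 547 ± 96.2 and Gli3 427 ± 121 normalized counts per kb in the germline wild-type libraries (SD, n = 3 each), and these neighbours overlapped. Boc followed with 279.5 ± 13.0, apart from Gli3 above and from Ptch1 below. Ptch1 at 123 ± 59.5, Gli2 at 122 ± 29.7 and Sufu at 95.4 ± 17.4 normalized counts per kb overlapped in turn. Gli1 at 35.1 ± 18.3, Shh at 25.3 ± 25.8 and Hhip at 13.9 ± 4.59 normalized counts per kb made up the low end and also overlapped in turn. In the inducible wild-type libraries the order per kb was Smo (1367 ± 52.9), Gli3 (1145 ± 177), Boc (573 ± 70.3), Gli2 (345 ± 36.8), Sufu (297 ± 10.1), Ptch1 (234 ± 61.3), Gli1 (108 ± 3.95), Shh (58.0 ± 65.7) and Hhip (23.6 ± 21.4; SD, n = 2 each). Only Shh and Hhip, the last neighbours in that order, overlapped there.

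**Figure D1:**
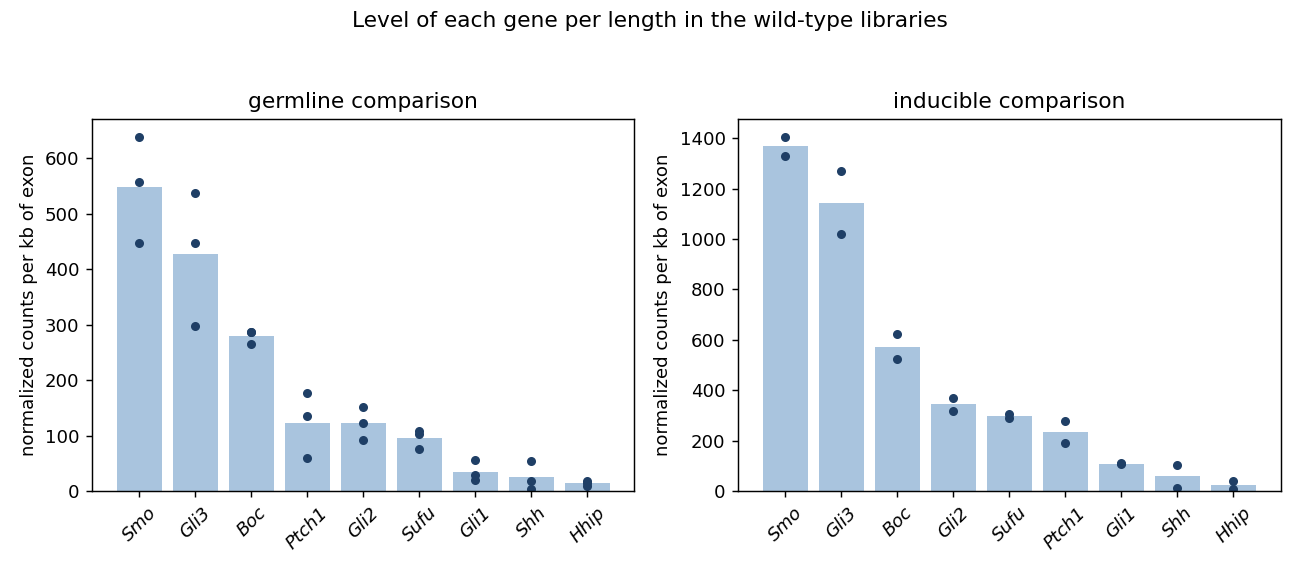
Bars show the mean and points the single wild-type libraries, in normalized counts per kb of exon, for each gene in the order of its mean (left, germline, n = 3; right, inducible, n = 2). Smo and Gli3 lead both orders, and Shh and Hhip close them.

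Shh, the ligand (chromosome 5, 28783355 to 28793641 on the minus strand of NCBIM37, also called mm9), varied widely from library to library within each genotype. It had 9.97, 145 and 49.0 normalized counts in germline wild-type libraries and 182, 7.87 and 81.4 in the knockouts. The groups overlapped over most of their range, with wild-type replicate 1 and knockout replicate 2 lowest. The log2 fold change was 0.25 (standard error 1.30), which became 1.51 when knockout replicate 2 was left out and -0.74 when wild-type replicate 1 was. In the inducible libraries Shh had 281 and 31.2 normalized counts in wild type and 60.6, 180.3 and 449 in the knockouts. Here too the groups overlapped, and the log2 fold change of 0.84 (standard error 1.02) became 2.41 with wild-type replicate 1 left out and -0.72 with wild-type replicate 2 left out.

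Markers of the ventral telencephalon, where Shh is made, moved with Shh among the inducible libraries. The 14 markers of that list, led by Dlx1, summed to 15415 and 7998 normalized counts over inducible wild-type libraries and to 8813, 10779.7 and 18377 over the knockouts, and 0 of the 14 were at 0 in any of them. Wild-type replicate 2 and knockout replicate 1 were thus lowest, and wild-type replicate 1 and knockout replicate 3 highest, for the markers and for Shh alike. In the germline libraries the same list summed to 4524, 6238 and 6419 in wild type and 5887, 5186 and 5029.6 in the knockouts. The germline sums varied less, and knockout replicate 2, lowest for Shh, was not lowest for the sum. Of the 14 markers, knockout replicate 2 was lowest for 5 and highest for 3, and wild-type replicate 1 was also lowest for 5. The libraries stood in the order they had for Shh for 2 of the 14 in the germline table, Nkx2-1 and Olig1, which are named after their values were seen, and for 7 of the 14 in the inducible table. The part of ventral tissue in the Shh values was not tested.

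Ptch1, the receptor that hedgehog proteins bind and a target of the pathway, lies on chromosome 13 (63610261 to 63674474, minus strand, NCBIM37). It had 387, 1158 and 889 normalized counts in germline wild-type libraries and 2328, 731 and 1212 in the knockouts. Knockout replicate 1 was far above the rest and knockout replicate 2 fell among the wild-type libraries, so the groups overlapped. The log2 fold change was 0.79 (standard error 0.52), 1.19 without knockout replicate 2 and 0.36 without knockout replicate 1. Inducible wild-type libraries had 1823 and 1253 normalized counts of Ptch1, and the knockouts 1559, 1854 and 2172. The groups overlapped, with wild-type replicate 2 lowest, and the log2 fold change of 0.29 (standard error 0.18) was 0.017 without that library.

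Hhip, a membrane protein that binds hedgehog ligands and limits their range (chromosome 8, 82490014 to 82581905, minus strand, NCBIM37), was the member whose germline groups did not overlap. It had 46.2, 91.1 and 67.2 normalized counts in germline wild-type libraries and 138, 96.9 and 128 in the knockouts, with knockout replicate 2 closest to wild type. The log2 fold change was 0.86 (standard error 0.31), and 1.01 without knockout replicate 2. Hhip was past the thresholds, but not without wild-type replicate 1 (0.61), wild-type replicate 3 (0.87), knockout replicate 1 (0.75) or knockout replicate 3 (0.81). Nor was it past them with a replicate block (0.86) or Y-linked level as a covariate (0.77). In the inducible libraries Hhip had 189 and 41.6 normalized counts in wild type and 142, 140.0 and 192 in the knockouts. Wild-type replicate 2, which was also lowest for Shh and Ptch1, was the only low library, and the groups overlapped. Without it the log2 fold change of 0.80 (standard error 0.55) was -0.28, and without wild-type replicate 1 it was 1.88.

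Boc, a co-receptor that presents hedgehog ligands (chromosome 16, 44485158 to 44559010, minus strand, NCBIM37), ran against Shh in the library that stood apart. Germline wild-type libraries held 1278, 1280.2 and 1179 normalized counts of it, and the knockouts 1019, 2528 and 1238. Knockout replicate 2 was the high library and the remaining knockouts lay near or under wild type. The log2 fold change of 0.24 (standard error 0.32) was -0.15 without knockout replicate 2. Inducible libraries had 2331 and 2774 normalized counts of Boc in wild type and 2882, 2376 and 1958 in the knockouts, with overlapping groups and a log2 fold change of -0.10 (standard error 0.15), or 0.041 without knockout replicate 3.

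Smo and Sufu carry the signal inside the cell, Smo as its activator and Sufu as the protein that holds Gli factors back. Smo (chromosome 6, 29685694 to 29711365, plus strand, NCBIM37) had 1688, 2413 and 2104 normalized counts in germline wild-type libraries and 2177, 1324 and 2229 in the knockouts. The groups overlapped, with knockout replicate 2 lowest, and the log2 fold change was -0.14 (standard error 0.24), or 0.11 without that library. In the inducible libraries Smo had 5026 and 5309 normalized counts in wild type and 5017, 4893 and 4407 in the knockouts. These groups did not overlap, but the highest knockout library lay just under the lowest wild-type library. The inducible log2 fold change of Smo was -0.12 (standard error 0.068), from -0.16 (wild-type replicate 1 left out) to -0.060 (knockout replicate 3 left out). Sufu (chromosome 19, 46471386 to 46563294, plus strand, NCBIM37) ranged from 526 to 776 normalized counts over the germline and from 1909 to 2113 over the inducible libraries. Its groups overlapped in both comparisons, with a germline log2 fold change of 0.081 (standard error 0.18), or 0.15 without knockout replicate 2 and -0.077 when wild-type replicate 1 was left out. The inducible log2 fold change of Sufu was -0.071 (standard error 0.061), from -0.11 (knockout replicate 1 left out) to -0.036 (wild-type replicate 2 left out).

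Gli1, the Gli factor that acts as an activator and is itself a target of the pathway (chromosome 10, 126766945 to 126778645, minus strand, NCBIM37), had the largest germline log2 fold change of the 9 genes. In the germline libraries it had 78.5, 109 and 211 normalized counts in wild type and 566, 193 and 258 in the knockouts. Knockout replicate 1 was the high library, and knockout replicate 2 lay under wild-type replicate 3, so the groups overlapped. The log2 fold change was 1.32 (standard error 0.49), and 1.64 without knockout replicate 2. Past the thresholds in the germline comparison, Gli1 was no longer so without wild-type replicate 1 (1.00), wild-type replicate 2 (1.23), knockout replicate 1 (0.87) or knockout replicate 3 (1.43). Nor was Gli1 past them with Y-linked level as a covariate (1.40). In the inducible libraries Gli1 had 419.8 and 399 normalized counts in wild type and 609, 821 and 704 in the knockouts. Here every knockout library lay above both wild-type libraries, which differed little from each other, and the log2 fold change was 0.79 (standard error 0.13), between 0.68 and 0.89 over the fits without 1 library. Inducible wild-type replicate 2 was lowest for Gli1 too, but close to wild-type replicate 1, whereas for Shh, Ptch1 and Hhip it lay well under that library.

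The inducible Gli1 values share limits with other inducible values, which come from the table itself and from the sex of the embryos. Among the genes of the inducible table, 106 with a value above 5 in some library are written with at most 2 decimals. Compared line by line, 104 of them stood at another place than in the germline table. How many of all genes did so was not counted, so nothing is read from the 104. Gli1 is the only member among the 106. Kif20a, given above as the check of the genotype, and Kdm5d are among them too. Of these 106 genes, all tested, 83 passed the thresholds. Only 99 of the remaining tested genes did, and over all 14081 tested genes 182 (1.29%) were past them. How a gene is written is thus not independent of its difference between the groups. The reason these genes are written differently is not stated with the deposited data, and whether their values were processed otherwise was not tested. Kdm5d, a gene of the Y chromosome, was at 0 in both inducible wild-type libraries and at 1350.2, 1259 and 1386 normalized counts in the knockouts, so that sex and genotype cannot be told apart for any inducible value, Kif20a and the members included. The germline libraries were mixed, with 485, 1.63 and 1442 normalized counts of Kdm5d in wild type and 0.52, 0 and 398 in the knockouts.

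Markers of other tissues were also uneven over the germline libraries in which Gli1 and Ptch1 were high. Their lists, and that of hypoxia genes, were written with earlier results of these data known. Nothing is therefore read from their counts beside the shares of all genes. The 10 diencephalon markers, led by Tcf7l2, summed to 1417, 2435 and 2856 normalized counts over germline wild-type libraries and to 6151, 2236 and 2400.3 over the knockouts, and 0 of the 10 were at 0. Knockout replicate 1, highest for Gli1, Ptch1, Hhip and Shh, was thus also highest for the diencephalon list and, as given above, for the cranial mesenchyme list. The same library was lowest for the dorsal pallium sum (9694) and the neuronal sum (27969). It was also highest for the sum of 8 endothelium markers, led by Kdr, at 3033 normalized counts. The 14 hypoxia and glycolysis genes, led by Ldha and with 0 at 0, summed to 18580.1, 18691 and 18767 in wild type and 60554, 84959 and 22568 in the knockouts. Of the 14, 11 were past the thresholds and higher in limma (Adm, Aldoa, Ankrd37, Bnip3, Ldha, P4ha1, P4ha2, Pdk1, Pgk1, Slc2a1 and Vegfa), beside 2.07% of all tested genes. Past the Benjamini-Hochberg threshold were 0 of the 14. Knockout replicates 1 and 2 were the high libraries for this list, as they were for Gli2. In the inducible comparison 4 of its 13 tested genes were above 0, and 1, Ndrg1 (0.86), was past the thresholds and higher, beside 0.802% of all tested genes. A limma P of 0.05 before adjustment was reached by 3 of the 13, beside 6.01% of all tested genes. Of these 3, Slc2a1 (-0.24) and Egln3 (-0.27), the latter named after its values were seen, were lower. Of 14 markers of the cortical hem and choroid plexus, 13 had a germline log2 fold change above 0. In limma 6 were past the thresholds and higher (Bmp6, Msx2, Rspo1, Rspo2, Rspo3 and Wnt8b), beside 2.07% of all tested genes, and 1, Ttr, lower, beside 0.667%. A limma P of 0.05 before adjustment was reached by 8 of the 14, beside 5.39% of all tested genes, and 0 were past the Benjamini-Hochberg threshold. The sum of the 14 markers, led by Ttr, was 8264, 9520.2 and 6829 in germline wild type and 8223, 9172 and 8559 in the knockouts, with 0 markers at 0. In the inducible comparison, where Gli1 was higher, 0 of the 14 were above 0. There, 6 reached a limma P of 0.05 before adjustment, beside 6.01% of all tested genes, and 0 were past the Benjamini-Hochberg threshold. Past the thresholds in limma and lower were 3 (Bmp6, Msx2 and Rspo1), beside 0.49% of all tested genes. These 3 are also among the 106 genes written differently. Among the diencephalon markers 5 of 10 had an inducible log2 fold change above 0, and 3 reached a limma P of 0.05 before adjustment, beside 6.01% of all tested genes. Of these, Lhx5 (-0.49) and Lhx1 (-0.41), named after their values were seen, were lower and not past the thresholds. Past the thresholds and higher was 1 of 10, Olig3, beside 0.802% of all tested genes. Olig3 is also 1 of the 106 genes, with 9.88 and 3.29 normalized counts in wild type and 109, 175 and 8.45 in the knockouts, so that its groups overlapped. The inducible sum of the hem list, led by Wnt8b, was 13112 and 15654 in wild type and 12529, 11353 and 6616 in the knockouts, with 0 markers at 0. The part of these tissues and of the hypoxia genes in the hedgehog values was not tested.

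Gli2, the main activator of the first response to hedgehog (chromosome 1, 120730709 to 120950196, minus strand, NCBIM37), had 637, 837 and 1046 normalized counts in germline wild-type libraries and 1467, 1472 and 952 in the knockouts. Knockout replicates 1 and 2 were the high libraries and knockout replicate 3 lay under wild-type replicate 3, so the groups overlapped. The log2 fold change was 0.63 (standard error 0.25), and past the thresholds, but not without wild-type replicate 1 (0.44), wild-type replicate 2 (0.64), knockout replicate 1 (0.52) or knockout replicate 2 (0.52). Nor was Gli2 past them with array weights (0.50), a replicate block (0.63) or Y-linked level as a covariate (0.47). In the inducible libraries Gli2 had 2191 and 2549 normalized counts in wild type and 2662, 2307 and 2104 in the knockouts. The groups overlapped fully, with a log2 fold change of -0.010 (standard error 0.11), from -0.12 (wild-type replicate 1 left out) to 0.099 (wild-type replicate 2 left out).

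Gli3, the most abundant Gli factor per length in both tables (chromosome 13, 15555068 to 15821859, plus strand, NCBIM37), stood at 2849, 4281 and 5145 normalized counts in germline wild-type libraries and at 3823, 4553 and 4120.3 in the knockouts. All germline knockouts lay inside the wild-type range, and the log2 fold change was 0.064 (standard error 0.22), or -0.0017 without knockout replicate 2, and from -0.18 (wild-type replicate 1 left out) to 0.25 (wild-type replicate 3 left out). Inducible libraries had 9774 and 12179 normalized counts of Gli3 in wild type and 12140.3, 10015 and 8427 in the knockouts. These groups overlapped too, with a log2 fold change of -0.11 (standard error 0.15), or 0.045 without wild-type replicate 2.

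**Figure D2:**
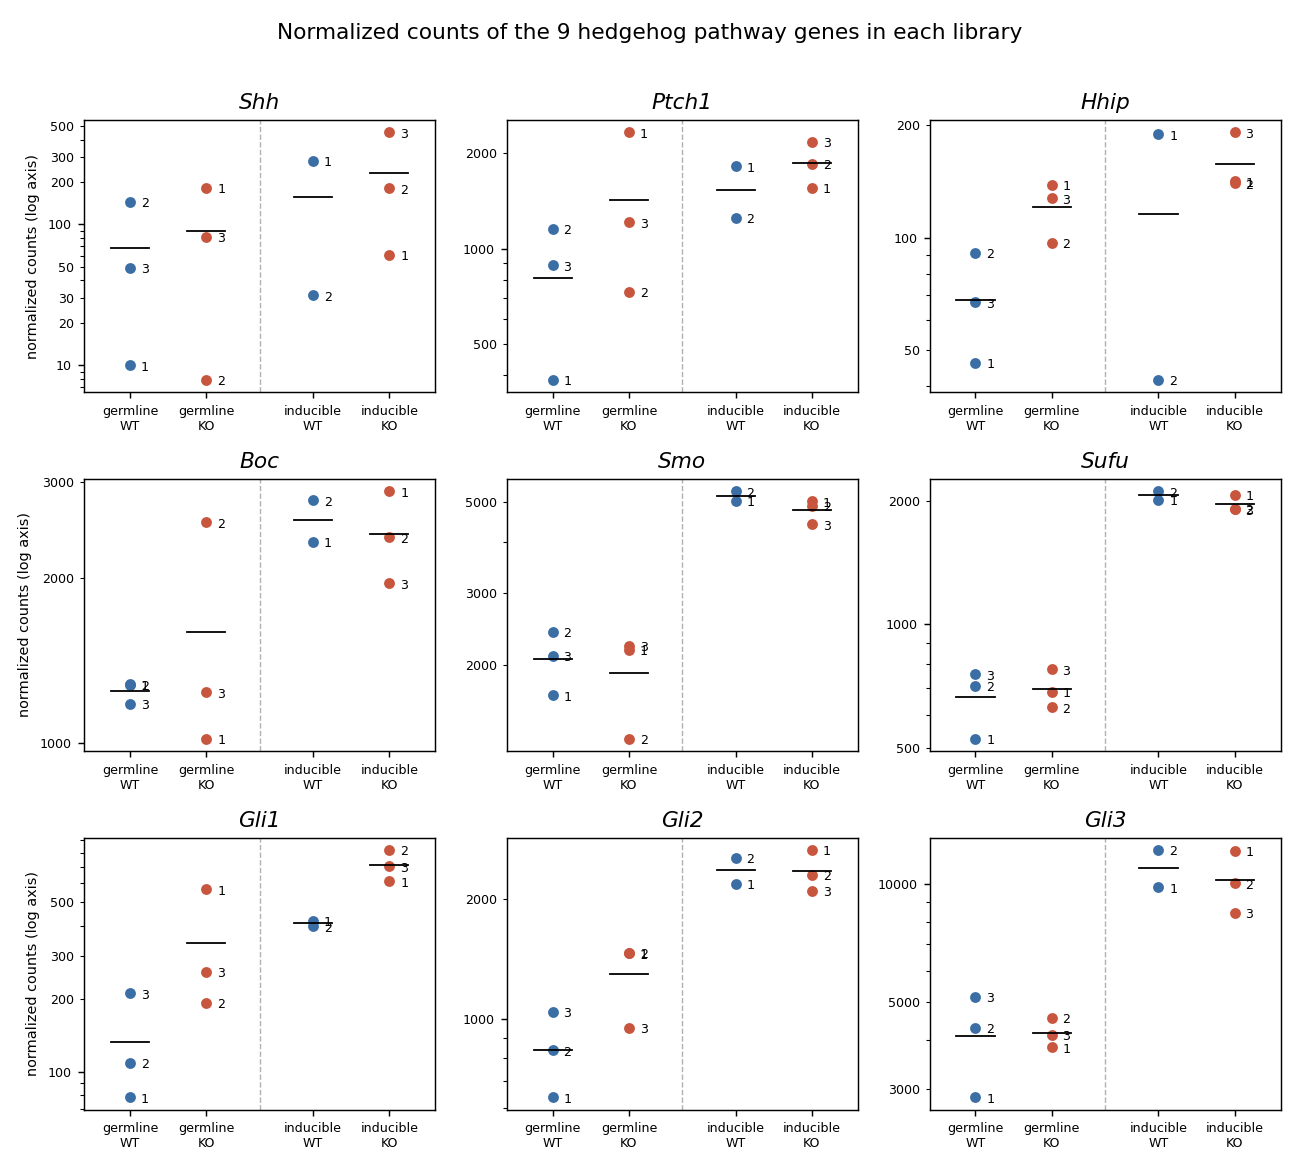
Points are single libraries, numbered by replicate, in normalized counts on log axes, and black lines are group means (WT, wild type; KO, knockout; the dashed line parts 2 tables that were normalized separately). Inducible Gli1 is higher in all 3 knockouts than in both wild-type libraries, while the genotypes overlap for Shh in both tables.

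Promoter sequences are shown for Gli2, Ptch1 and Hhip, the members with RefSeq entries whose germline log2 fold changes were highest. RefSeq promoters, 250 bases before to 50 after the start of a gene on GRCm38.p6, were matched by symbol for 6 of the 9 members, with no entry for Shh, Gli1 and Boc. These coordinates belong to GRCm38.p6 and not to the NCBIM37 positions above. The Gli2 window is chr1:119053570-119053869, minus strand, the Ptch1 window is chr13:63565686-63565985, minus strand, and the Hhip window is chr8:80057959-80058258, minus strand, each written 5′ to 3′ along the gene. Capitals mark matches to any of 6 motifs searched on both strands, 3 of them for Gli factors. These were the consensus GACCACCCA, its inner part with the letters ACCACCC, and its end with the letters CCACCCA, so that the last 2 lie inside the first and overlap each other. The remaining motifs were the GC box with the letters GGGCGG, the box named after its letters CCAAT, and the TATA box with the letters TATAAA.
Gli2: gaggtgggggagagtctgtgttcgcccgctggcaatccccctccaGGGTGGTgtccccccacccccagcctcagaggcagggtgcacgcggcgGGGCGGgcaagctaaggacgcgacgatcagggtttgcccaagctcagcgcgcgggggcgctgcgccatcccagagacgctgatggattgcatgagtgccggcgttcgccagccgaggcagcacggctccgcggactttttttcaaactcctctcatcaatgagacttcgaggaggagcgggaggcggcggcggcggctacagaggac
Ptch1: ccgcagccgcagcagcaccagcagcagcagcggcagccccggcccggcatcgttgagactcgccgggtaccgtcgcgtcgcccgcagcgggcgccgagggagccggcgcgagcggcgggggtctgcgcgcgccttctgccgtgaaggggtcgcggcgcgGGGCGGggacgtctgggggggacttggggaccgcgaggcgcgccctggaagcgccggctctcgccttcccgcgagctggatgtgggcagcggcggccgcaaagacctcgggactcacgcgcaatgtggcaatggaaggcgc
Hhip: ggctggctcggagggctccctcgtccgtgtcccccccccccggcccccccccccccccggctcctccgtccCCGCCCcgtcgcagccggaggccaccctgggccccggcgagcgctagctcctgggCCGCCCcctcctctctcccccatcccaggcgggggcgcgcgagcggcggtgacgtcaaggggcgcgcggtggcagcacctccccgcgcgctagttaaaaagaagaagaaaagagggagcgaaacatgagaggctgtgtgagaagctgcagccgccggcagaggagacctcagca

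Among the 6 member promoters, 0 held GACCACCCA, which 0.253% of the 32851 RefSeq promoters hold. The Gli2 promoter held ACCACCC on the minus strand, at position -205 relative to the start, and 4.61% of all promoters hold these letters. CCACCCA (9.3% of all promoters) and TATAAA (13.6%) were in 0 of the 6, and CCAAT (37.4%) was in 1, that of Sufu. GGGCGG was in 5 of the 6, those of Gli2, Gli3, Hhip, Ptch1 and Sufu, against 35.7% of all promoters. A match is a description of letters, and a missing match says only that the letters are not in this window.

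Counted together, 8 of the 9 members had a germline log2 fold change above 0, with a median of 0.25 (0.52 without knockout replicate 2), beside a median of -0.043 over the 13938 genes tested, of which 44.0% were above 0. In the germline comparison 3 members, Gli1, Gli2 and Hhip, were past the thresholds and higher, beside 2.07% of all tested genes, and 0 were lower, beside 0.667%. Hhip alone had every knockout above every wild-type library, beside 5.9% of all tested genes, and 0 members had every knockout below, beside 7.55%. The count past the thresholds was 3 without knockout replicate 2 (then Gli1, Ptch1 and Hhip), 2 without wild-type replicate 3, 1 without wild-type replicate 2 or knockout replicate 3, and 0 without wild-type replicate 1 or knockout replicate 1. In these fits 8.77% of all tested genes were past the thresholds in either direction without knockout replicate 2, 2.54% without wild-type replicate 3, 1.28% without wild-type replicate 2, 7.33% without knockout replicate 3, 1.13% without wild-type replicate 1 and 1.45% without knockout replicate 1, against 2.74% with all libraries. The count of members was also 0 with the level of Y-linked genes as a covariate, where the log2 fold changes were 1.40 for Gli1, 0.47 for Gli2 and 0.77 for Hhip. Over all genes 81 were then past the thresholds and lower and 105 higher, against 93 and 289 in the main fit. With array weights the count of members was 3, of which Gli2 was not one and Ptch1 (1.04) was, beside 484 lower and 560 higher over all genes. The count with groups apart was 3 without wild-type replicate 3 or without knockout replicate 2, and 2 without knockout replicate 3, beside 22%, 33% and 31.1% of all genes tested in these fits.

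In the inducible comparison 4 of the 9 members had a log2 fold change above 0, with a median of -0.010, beside a median of -0.0019 over the 14081 genes tested, of which 49.2% were above 0. Only Gli1 was past the thresholds, higher in the knockouts, beside 0.802% of all tested genes, and 0 members were lower, beside 0.49%. Gli1 was also the only member with every knockout above every wild-type library, beside 10.4%, and Smo the only member with every knockout below, beside 12.2%. Without wild-type replicate 1 the members past the thresholds numbered 3, among them Shh and Hhip, beside 2.29% of all genes tested in that fit, and those with groups apart numbered 7, beside 54.5%. Without knockout replicate 1 the members with groups apart numbered 4, beside 37.5% of all genes. After Benjamini-Hochberg adjustment over all tested genes in limma, 0 of the 9 members were past 0.05 in either comparison. Because the members were chosen on these comparisons, nothing is read from their counts.

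**Figure D3:**
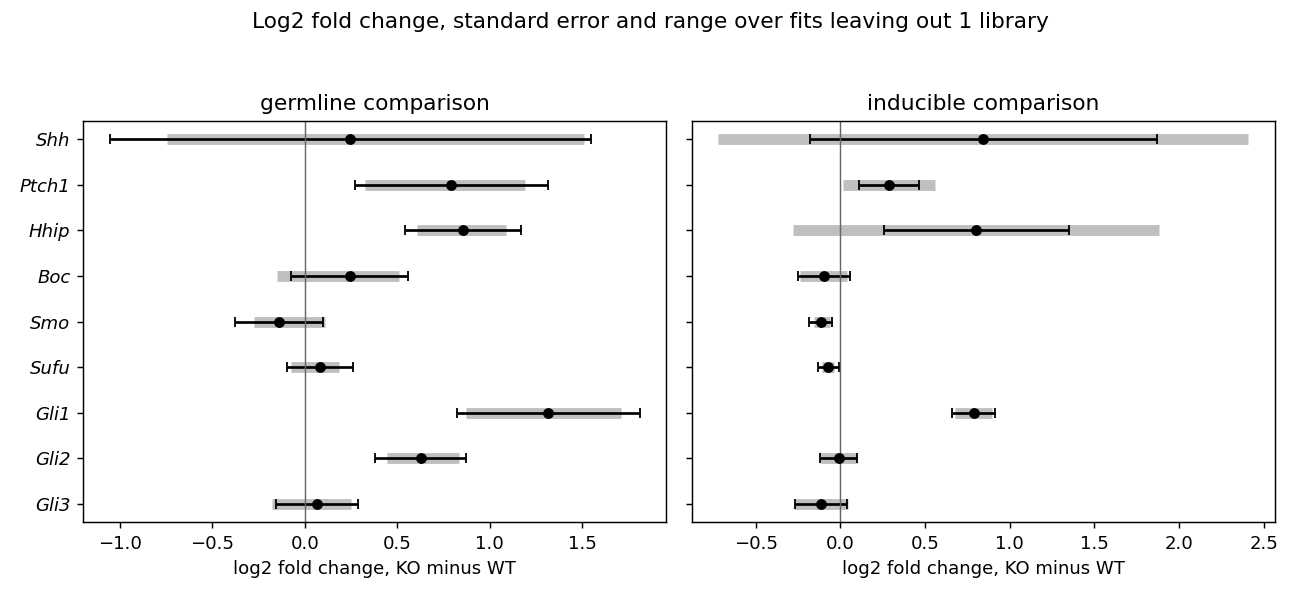
Points are log2 fold changes, knockout minus wild type, on the log2(normalized count + 1) scale, with standard errors as black bars and the range over fits that each leave out 1 library as grey bars (left, germline; right, inducible). Gli1 and Ptch1 lie above 0 over the whole grey range in both comparisons, Ptch1 down to 0.017 in the inducible one, while the grey ranges of Shh cross 0 in both.

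Other genes of the pathway were taken from 5 lists written by role, with earlier results of these data known. They held 39 genes besides the members, of which 1, Disp1, was not found by symbol. In the germline comparison 32 were tested, 0 were past the thresholds in limma and 0 reached a limma P of 0.05 before adjustment, beside 5.39% of all tested genes. Their median log2 fold change was 0.057, with 20 of 32 above 0, and it was -0.036 without knockout replicate 2 (15 of 32 above 0), -0.023 without wild-type replicate 1 (14 of 32 above 0) and up to 0.18 without knockout replicate 3. In the inducible comparison 33 were tested and 0 were past the thresholds, while 3, Scube3, Stk36 and Bcl2, reached a limma P of 0.05 before adjustment, each with a fold change under 1.5, beside 6.01% of all tested genes at that P. These 3 are named after their values were seen. Their inducible log2 fold changes were -0.52, -0.23 and 0.32, and the median of the 33 was 0.0071 with 17 above 0, from -0.058 (wild-type replicate 2 left out) to 0.023 (wild-type replicate 1 left out). After Benjamini-Hochberg adjustment in limma 0 of these genes passed in either comparison, where 1 of all germline genes (0.00717%) and 5 of all inducible genes (0.0355%) did. Without germline knockout replicate 2, 3 of these 32 genes were past the thresholds, as were 8.77% of all genes tested in that fit. Without germline wild-type replicate 3 it was 1, beside 2.54% of all genes. In the inducible comparison 4 of 32 were past them without wild-type replicate 1, beside 2.29% of all genes, and 1 without knockout replicate 1 or 3, beside 1.44% and 1.29%.

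By role, the ligands Ihh and Dhh were under the filter in both tables, at germline wild-type means of 2.37 and 1.58 normalized counts, so Shh was the only hedgehog ligand tested. The 4 tested genes of ligand release, led by Scube1, had a germline median of 0.37 and an inducible median of -0.11, and the difference was not tested. The 4 tested receptors and antagonists besides the members, led by Cdon, had a germline median of 0.27 and an inducible median of -0.17. The 15 transducers, led by Gnas, had medians of 0.036 and 0.0071. Textbook targets besides the members, led by Ccnd1, had a median of 0.061 over 10 germline genes and 0.26 over 11 inducible genes. Of 24 genes for transport and the transition zone of the primary cilium, led by Kif3a, 0 were past the thresholds in limma in either comparison, with 2 of 24 in each that reached P of 0.05 before adjustment, beside 5.39% and 6.01% of all tested genes, and the medians were 0.17 and -0.032. These medians moved with single libraries. When each library in turn was left out, the germline median lay between 0.023 (without wild-type replicate 1) and 0.64 (wild-type replicate 3) for ligand release, and between 0.079 (wild-type replicate 1) and 0.44 (wild-type replicate 2) for receptors and antagonists. It lay between -0.15 (knockout replicate 2) and 0.17 (knockout replicate 3) for transducers, between -0.062 (wild-type replicate 1) and 0.58 (knockout replicate 2) for targets, and between 0.12 (knockout replicate 2) and 0.24 (knockout replicate 3) for cilium genes. Without knockout replicate 2 it was 0.48 for ligand release and 0.37 for receptors and antagonists. The inducible median lay between -0.23 (wild-type replicate 1) and -0.096 (knockout replicate 1) for ligand release, and between -0.19 (knockout replicate 2) and -0.014 (knockout replicate 3) for receptors and antagonists. It lay between -0.031 (wild-type replicate 2) and 0.021 (wild-type replicate 1) for transducers, between -0.12 (wild-type replicate 2) and 0.54 (wild-type replicate 1) for targets, and between -0.080 (knockout replicate 2) and -0.0053 (knockout replicate 3) for cilium genes.

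Over the 11 libraries, after the mean of each table was subtracted, the genes with the highest Pearson correlation to Gli1 were Arhgap10 (r = 0.942), Morc4 (r = 0.936) and Dennd2c (r = 0.924), among 13741 genes tested in both tables. The closest to Gli2 were Zfp36l1 (r = 0.969), Rest (r = 0.967) and Foxp1 (r = 0.966). The closest to Shh were Asic4 (r = 0.980), Onecut3 (r = 0.960) and Peg3 (r = 0.960). For Gli1 and Gli2, r was higher over the 6 germline than over the 5 inducible libraries, except for Dennd2c, which was nearly equal in both. Arhgap10, Morc4 and Dennd2c had r of 0.974, 0.969 and 0.926 to Gli1 over the germline and 0.729, 0.774 and 0.925 over the inducible libraries. Zfp36l1, Rest and Foxp1 had r of 0.987, 0.982 and 0.992 to Gli2 over the germline and 0.773, 0.902 and 0.524 over the inducible libraries. For Shh the 3 genes had r of at least 0.959 in each table. These values describe likeness over libraries that share genotype, litter and tissue makeup, and they carry no test.

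**Figure D4:**
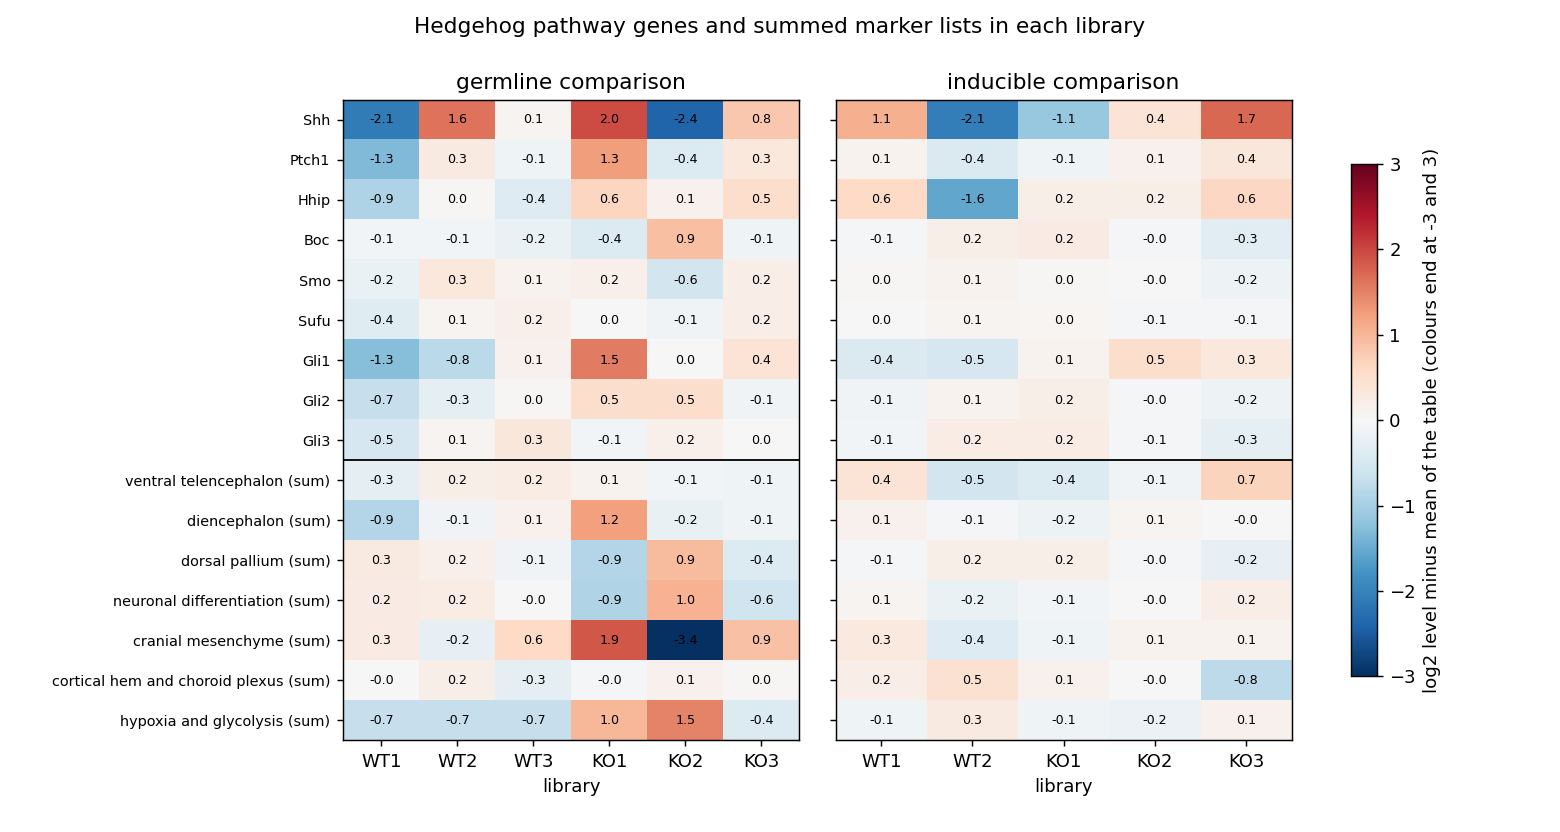
Cells give the log2 level of each hedgehog gene (top) and of the summed marker lists (bottom) minus the mean of its table, for each library (WT, wild type; KO, knockout; red higher, blue lower, colours end at -3 and 3). Shh and the ventral telencephalon sum are lowest together in inducible WT2, and germline KO2 is lowest for cranial mesenchyme.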

How the data were processed

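Poly(A) RNA of 11 forebrain libraries was compared within 2 tables. Reads were aligned by the authors to mm9 in TopHat (version 1.2.0 in the submitters' processing notes, another version in the study's methods), and counted on RefSeq exons, each read a single time for a gene, with edgeR's TMM normalization (trimmed mean of M-values). This normalized count is the deposited signal, not whole and not divided by length, so no count model was fitted and depth per library is not known. Whether reads were counted by strand is not stated, so overlapping genes cannot be told apart. Summed normalized counts per library, rounded to 6 digits, lay between 13048700 and 15551300 in the germline and between 24118500 and 24497300 in the inducible table. Identical values were held by 0 pairs of libraries.

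The logarithm, log2(normalized count + 1), was fitted with limma 3.58.1 in R 4.3.3 (lmFit, eBayes with a trend, two-sided), each table alone, for genes with a mean of at least 10. Adjusted p-values are Benjamini-Hochberg values over all genes tested. The fit was tested on simulated data, with noise drawn independently for each gene and library. Such data hold no shift shared by many genes of 1 library, so that test does not cover libraries like germline knockout replicate 2. The labels do not say that libraries came from separate animals, so p-values measure only the spread between libraries.

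The members and gene lists were chosen with earlier results of these data known. Named genes were the members, Kif20a, genes of the hedgehog lists past the thresholds, for other lists the most abundant gene and those past the thresholds, the 3 genes most correlated with each of Gli1, Gli2 and Shh, and Kdm5d and Xist for sex; Xist was not found by symbol. Other lists are named only where they bear on a hedgehog gene. Genes flagged for opposite directions in the 2 comparisons, Hhat and Kif7 among them, are named as well. Genes outside these rules are said to be. All 6 promoter motifs that were searched are reported. Results that need 2 genes of the lists are not reported here, and the lists were counted without them. Alternatives were pseudocounts of 0.1 and 5, no filter, quantile normalization, array weights, a replicate block, Y-linked level as a covariate in the germline table, and leaving out each library.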

Additional observations from a re-analysis of the deposited data

Results flagged for a closer look

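For 14 of 79 genes looked at, every germline knockout library lay on one side of the wild-type mean and every inducible knockout library on the opposite side, and the difference between the comparisons was not tested. Of all 13741 genes tested in both tables, 10.8% did so. The 79 did not hold every gene of the lists. The hem and hypoxia genes counted in the 14 were all past the germline thresholds, so nothing is read from the 14 beside this share. Single wild-type libraries may lie beyond the knockouts, as for Scube1, whose germline knockouts all lay inside the wild-type range. None of the 9 members was among the 14 (0 of 9). Log2 fold changes are given for the germline and then the inducible comparison. Among hedgehog genes these were Hhat (0.55 and -0.074), Scube1 (0.27 and -0.15), Scube3 (0.48 and -0.52) and Kif7 (0.38 and -0.085). Among markers of the cortical hem and choroid plexus they were Bmp6 (0.74 and -0.87), Msx2 (1.94 and -1.08), Rspo1 (0.80 and -0.84), Rspo2 (1.03 and -0.81), Rspo3 (0.60 and -0.42) and Wnt8b (0.90 and -0.60). Among hypoxia and glycolysis genes they were Bnip3 (2.54 and -0.20), P4ha1 (1.79 and -0.11), Pdk1 (1.79 and -0.23) and Slc2a1 (1.88 and -0.24). Bmp7 (0.45 and -0.29) and Lmx1a (0.56 and -0.55) of the hem list also lay on opposite sides. They are named after their values were seen and are not counted in the 14.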

How the results depend on the processing

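Of 216 log2 fold changes of single members under alternatives, 2 moved by more than the SD of the gene's log2 values within groups, both of inducible Hhip (1.88 without wild-type replicate 1, -0.28 without replicate 2). A library that lies far out widens this SD, so that inducible Shh at 2.41 or -0.72 and germline Shh at 1.51 or -0.74 with 1 library left out are not counted as moved. Germline Gli1, Gli2 and Hhip were each no longer past the thresholds in 4 of the 6 fits that left out 1 library. The main counts past the thresholds were 93 lower and 289 higher germline genes and 69 lower and 113 higher inducible genes, with 1 and 5 past the adjusted threshold. With no filter they were 180 lower in the germline, and 145 lower, 212 higher and 13 adjusted in the inducible comparison, where 1 other hedgehog gene passed. With array weights they were 484 lower and 560 higher in the germline, where 1 other hedgehog gene passed, and 18 adjusted in the inducible comparison. A pseudocount of 0.1 gave 15 adjusted inducible genes. With Y-linked level as a covariate 105 germline genes were higher and 0 members passed, with log2 fold changes of 1.40 for Gli1 and 0.77 for Hhip. The cause was not tested.

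Leaving out 1 library at a time gave, in the germline comparison, 42 to 642 lower, 115 to 617 higher and 0 to 11 adjusted genes, 0 to 3 members past the thresholds, 1 to 3 with groups apart, a member median of 0.26 to 0.64, 0 to 3 other hedgehog genes and a Kif20a log2 fold change of -2.66 to -2.44. In the inducible comparison it gave 44 to 89 lower, 80 to 250 higher and 4 to 6 adjusted genes, 1 to 3 members past the thresholds, 2 to 7 with groups apart, a member median of -0.11 to 0.068, 0 to 4 other hedgehog genes and a Kif20a log2 fold change of -0.74 to -0.67. Where this left 1 wild-type library, it was assumed to vary like the knockouts. The cause was not tested.

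Nothing in the labels says that equal replicate numbers pair the libraries. Germline libraries of the same number had correlations of -0.12, 0.31 and 0.25, and those of different numbers lay between -0.36 and 0.33. These values do not settle whether the numbers pair the libraries. No pairing was used in the main fit, and a link by litter was not tested. With 2 wild-type libraries, the inducible correlations to each are mirror images and cannot show a pairing. With the replicate block, 1 germline member, Gli1, was past the thresholds, and Gli2 (0.63) and Hhip (0.86) were not. The germline counts were then 98 lower and 278 higher, while 53 inducible genes were lower and 110 higher, 1 other hedgehog gene among those past the thresholds. The block leaves inducible knockout replicate 3 without a wild-type partner, so its log2 fold changes equal those without that library, with a member median of 0.068 and Kif20a at -0.67 (adjusted p = 0.30 in limma with Benjamini-Hochberg adjustment, within 0.00274 to 0.30 over all alternatives, and 0.0401 without knockout replicate 3). The cause of the other moves was not tested. Depth per library is not known, so no limit from counting is given.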
